A study of Bos indicus with 9 samples.

Results

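The regions described here are the consensus ATAC-seq peaks that start within the first 1 Mb of the 29 bovine autosomes, the centromere end of each chromosome in the ARS-UCD1.2 assembly. They were chosen by position alone, from the chromosome and the start of each deposited peak. They numbered 2794 of the 140923 peaks in the 3 lists, with 956 of 78528 in hypothalamus, 944 of 40104 in muscle, and 894 of 22291 in liver. The same 3 unrelated, post-pubertal Brahman heifers (*Bos indicus*) gave all 3 tissues, with no treatment or genetic change named in the labels, so each tissue had 3 libraries and the series 9. The tissues were bulk samples of frozen tissue, so cell types within a tissue cannot be told apart. The lists hold positions without gene names, and the tissue labels were not checked at marker genes.

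The assay for transposase-accessible chromatin (ATAC-seq) marks open DNA by where the Tn5 transposase can insert adapters. Cattle autosomes are acrocentric, with the centromere close to 1 end of the chromosome and nearly all genes on the long arm. Mammalian centromeres and the heterochromatin next to them are built on long arrays of satellite DNA, repeats that are usually packed tightly and that short reads match at many places. The edge of an assembled chromosome next to such arrays can hold copies of them, mixed with duplicated segments and with ordinary genes. Whether the sequence under these peaks is satellite, duplicated, or unique was not tested, and centromere end is used here as a name for position.

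Each list is 1 consensus for a tissue, in which the peak caller combined its p values over the 3 heifers, so no value belongs to 1 animal and no test between tissues could be made. A peak carries an area under the curve (AUC), the caller's signal summed over the peak, and a summit value, the combined −log10 p at its highest point. Intervals below are 95% intervals that cover counting error only, and peaks that share libraries are not replicates of a tissue. The authors kept reads with several alignments and counted them as fractions at each place, and the part this had in the values below was not tested.

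The 3 lists differed widely in number of peaks over the autosomes, but far less in the first megabase. Elsewhere on the autosomes there were 68177 peaks in hypothalamus, 28554 in muscle, and 10465 in liver, so the hypothalamus list was 6.52 times as long as the liver list and the muscle list 2.73 times. In the first megabase the same ratios were 1.07 and 1.06. The counts of 956 (95% interval 896.4 to 1019), 944 (884.7 to 1006), and 894 (836.4 to 954.6) had overlapping exact Poisson intervals. In the second megabase the counts were already 881, 351, and 135, with ratios to liver of 6.53 and 2.60, close to those of the other autosomal sequence.

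Peak density was therefore higher at the centromere end by a different amount in each list. Hypothalamus had 33.0 peaks per Mb in the first megabase against 27.7 over the rest of the autosomes, a ratio of 1.19 (exact interval 1.11 to 1.27). Muscle had 32.6 against 11.6, a ratio of 2.80 (2.62 to 2.99). Liver had 30.8 against 4.26, a ratio of 7.24 (6.75 to 7.75). The first megabase made up 1.17% of the autosomal span and held 1.38% of the hypothalamus, 3.20% of the muscle, and 7.87% of the liver autosomal peaks. Set against the second megabase, the hypothalamus ratio was 1.09 (0.989 to 1.19), whose interval includes 1, while muscle was at 2.69 (2.38 to 3.05) and liver at 6.62 (5.52 to 8.0). The liver ratio to the rest of the autosomes moved with the window, to 12.1 over the first 500 kb and 4.17 over the first 2 Mb. With each list limited to its strongest 11359 autosomal peaks by summit, the number liver has, the hypothalamus ratio was 1.17 with an interval that included 1 (0.987 to 1.37).

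The same order appeared in the DNA covered. Peaks covered 3.65% of the first megabase in hypothalamus, 2.66% in muscle, and 2.46% in liver, against 2.37%, 0.767%, and 0.241% of the other autosomal sequence. Neighbouring peaks also lay closer together. The median distance to the next peak in the list was 1096 bp (927.0 to 1347) in liver, 1256 bp (1049 to 1612) in muscle, and 2842 bp (2317 to 3580) in hypothalamus, against 52960, 15747, and 9610 bp for the other autosomal peaks.

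The opposite end of the autosomes showed much less of this evening of the lists. The last megabase, counted back from the end of the last peak on each autosome, held 1688 hypothalamus, 818 muscle, and 357 liver peaks. The ratios to liver there were 4.73 and 2.29, against 6.52 and 2.73 over all sequence outside the first megabase. Density was also raised at this end, at 58.2, 28.2, and 12.3 peaks per Mb, against 27.7, 11.6, and 4.26 over that sequence. Hypothalamus was thus less dense at the centromere end than at the far end, with a ratio of 0.566 (0.523 to 0.613). Muscle had a ratio of 1.15 (1.05 to 1.27) and liver 2.50 (2.21 to 2.84).

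**Figure D1:**
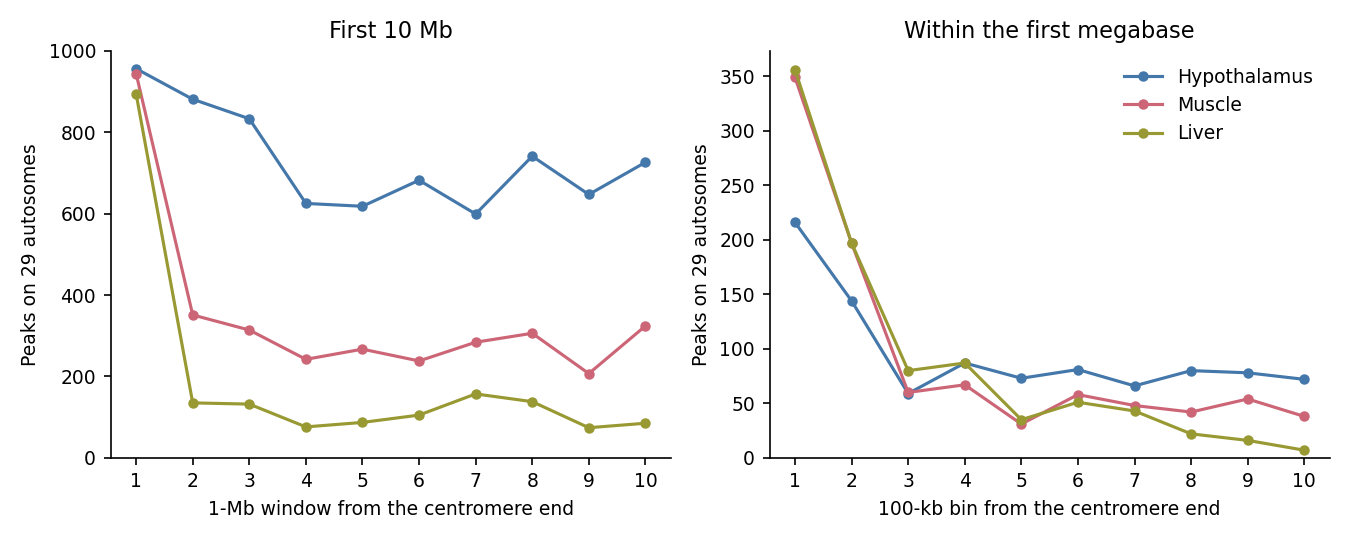
Peaks on the 29 autosomes by distance from the centromere end, in 1-Mb windows (left) and in 100-kb bins of the first megabase (right), with 1 line per tissue list. The 3 lists meet in the first window, at 956, 944, and 894 peaks, and in the first 100 kb hypothalamus has the fewest, at 216 against 349 and 356.

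Within the first megabase the peaks were crowded toward the chromosome start. The first 100 kb held 216 hypothalamus peaks on 24 autosomes, 349 muscle peaks on 24 autosomes, and 356 liver peaks on 24 autosomes. The next 100 kb held 144, 197, and 197 peaks. The last 100 kb, next to the 1 Mb limit, held 72 hypothalamus, 38 muscle, and 7 liver peaks, which is again the order of the lists as a whole. A limit at 200 kb, chosen after these counts were seen, split the members into a part with 360, 546, and 553 peaks and a part with 596, 398, and 341 peaks. In the first 200 kb the hypothalamus list had 0.651 times as many peaks as the liver list, and from 200 kb to 1 Mb it had 1.75 times as many.

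The autosomes contributed very unequally. Hypothalamus peaks were found on all 29 autosomes, from 1 to 123 peaks per autosome with a median of 19.00. Muscle and liver peaks were found on 28 autosomes each, with medians of 21.00 and 17.00 and highest counts of 138 and 133. The 3 autosomes with the most peaks held 34.3% of the hypothalamus, 32.3% of the muscle, and 38.3% of the liver members. The first megabase was denser than the rest of its own autosome on 24 of 29 autosomes in liver, 20 in muscle, and 14 in hypothalamus. The liver list had more peaks than the hypothalamus list in the first megabase of 12 autosomes, the same number on 2, and fewer on 15, while over the rest of the sequence it had more on 0 of 29.

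**Figure D2:**
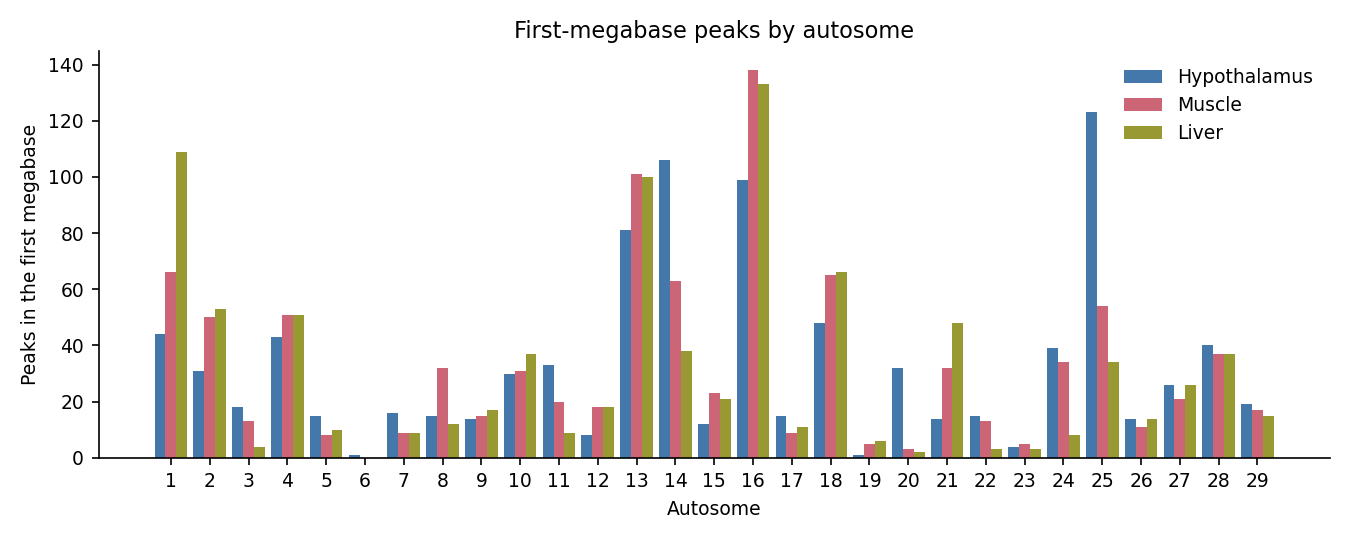
Number of first-megabase peaks on each autosome, with bars for hypothalamus, muscle, and liver. Autosomes 14 and 25 stand out in hypothalamus (106 and 123 peaks), autosomes 13 and 16 are high in all 3 lists, and autosome 6 has 1 hypothalamus peak and no peak in the other lists.

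Autosomes 25, 14, and 16 had the most hypothalamus peaks, at 123, 106, and 99. On autosome 25 the count fell to 54 in muscle and 34 in liver, and on autosome 14 to 63 and 38, the order seen elsewhere in the genome. Only 16 of the 123 peaks on autosome 25 and 1 of the 106 on autosome 14 lay in the first 200 kb. Autosome 16 had 99, 138, and 133 peaks in hypothalamus, muscle, and liver, with 71, 110, and 113 of them in the first 200 kb. Autosome 13 had 81, 101, and 100 peaks, with 63, 81, and 80 in the first 200 kb. On autosomes 14 and 25 the count was thus largest in hypothalamus, with most of those peaks away from the chromosome start. Their muscle and liver counts were also above the medians of 21.00 and 17.00 per autosome. In all 3 lists their first megabase was denser than the rest of the same autosome. Autosomes 13 and 16 were high in all 3 lists, with most peaks close to the start.

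In muscle the highest counts were on autosomes 16 (138), 13 (101), and 1 (66), and in liver on autosomes 16 (133), 1 (109), and 13 (100). Autosome 1 showed the reverse of the usual order, with 44 hypothalamus, 66 muscle, and 109 liver peaks. Autosomes 2, 9, 10, 18, 19, and 21 had the same reversed order. Autosome 18 carried 48, 65, and 66 peaks, all within its first 100 kb and none between 68 kb and the end of the first megabase. Autosome 20 had 32 hypothalamus peaks but 3 in muscle and 2 in liver. Autosome 6 had 1, 0, and 0 peaks, the lowest count in each list, and in hypothalamus autosome 19 was equally low, with 1 peak there, 5 in muscle, and 6 in liver. In muscle and liver the lowest count after that of autosome 6 was on autosome 20.

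Sharing between the lists was also different at the centromere end. A peak was called shared where it overlapped a peak of another list by at least 1 bp. Among all autosomal peaks 25.0% were shared in hypothalamus, 63.4% in muscle, and 93.1% in liver. In the first megabase 592 of 956 hypothalamus peaks were shared (61.9%, Wilson interval 58.8% to 65.0%), 827 of 944 in muscle (87.6%, 85.4% to 89.6%), and 738 of 894 in liver (82.6%, 79.9% to 84.9%). Compared with the rest of the autosomes, this was 37.5 percentage points more in hypothalamus (Newcombe interval 34.4 to 40.5) and 25.0 points more in muscle (22.7 to 27.0). Liver went the other way and was 11.4 points less shared, with a difference of −11.4 (−14.1 to −9.02). With the lists limited to equal numbers of peaks, the hypothalamus difference was 14.2 points and the liver difference −29.9 points, and the latter was −5.57 points when a peak within 1 kb counted as shared.

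Peaks that overlapped both other lists made up 12.6% of all autosomal hypothalamus peaks, 30.2% of those in muscle, and 81.1% of those in liver. In the first megabase these shares came together at 54.1% (517 peaks, 50.9% to 57.2%), 52.4% (495 peaks, 49.3% to 55.6%), and 54.0% (483 peaks, 50.8% to 57.3%). The difference from the rest of the autosomes was 42.0 points in hypothalamus (38.9 to 45.2), 23.0 points in muscle (19.7 to 26.2), and −29.4 points in liver (−32.7 to −26.1). A region open in all 3 lists counts about once in each list, so the number of such peaks is nearly equal between lists. The rest of the autosomes likewise held 8207, 8420, and 8729 of them in hypothalamus, muscle, and liver. The likeness of the 3 shares thus restates the near-equal counts of the first megabase. Intervals covered by all 3 lists were themselves denser there, at 18.4 per Mb against 3.58 over the rest of the autosomes. That is a ratio of 5.13 (exact interval 4.69 to 5.60). The shares were not recomputed with lists of equal length.

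The pairing of tissues changed as well. Of the muscle members 248 (26.3%) were shared with liver but not hypothalamus, and 84 (8.90%) with hypothalamus but not liver, where all autosomal muscle peaks had 2.34% and 30.8%. Of the liver members 245 (27.4%) were shared with muscle alone and 10 (1.12%) with hypothalamus alone, where all autosomal liver peaks had 5.92% and 6.05%. Most of the members shared by muscle and liver alone lay in the first 200 kb, at 181 of the 248 in muscle and 179 of the 245 in liver. In unplaced sequences this class made up 26.9% of the muscle and 24.6% of the liver peaks. In the second megabase 1 muscle peak was shared with liver alone, and 123 with hypothalamus alone. After overlapping peaks were merged, the first megabase held 1405 intervals, and 234 of them were open in muscle and liver only. These were 36.7% of the 637 autosomal intervals of that kind, where the first megabase held 1.73% of autosomal intervals of any kind. It also held 19.8% of the 788 liver-only, 5.35% of the 8617 shared by all lists, 1.08% of the 10798 muscle-only, and 0.702% of the 51882 hypothalamus-only intervals.

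**Figure D3:**
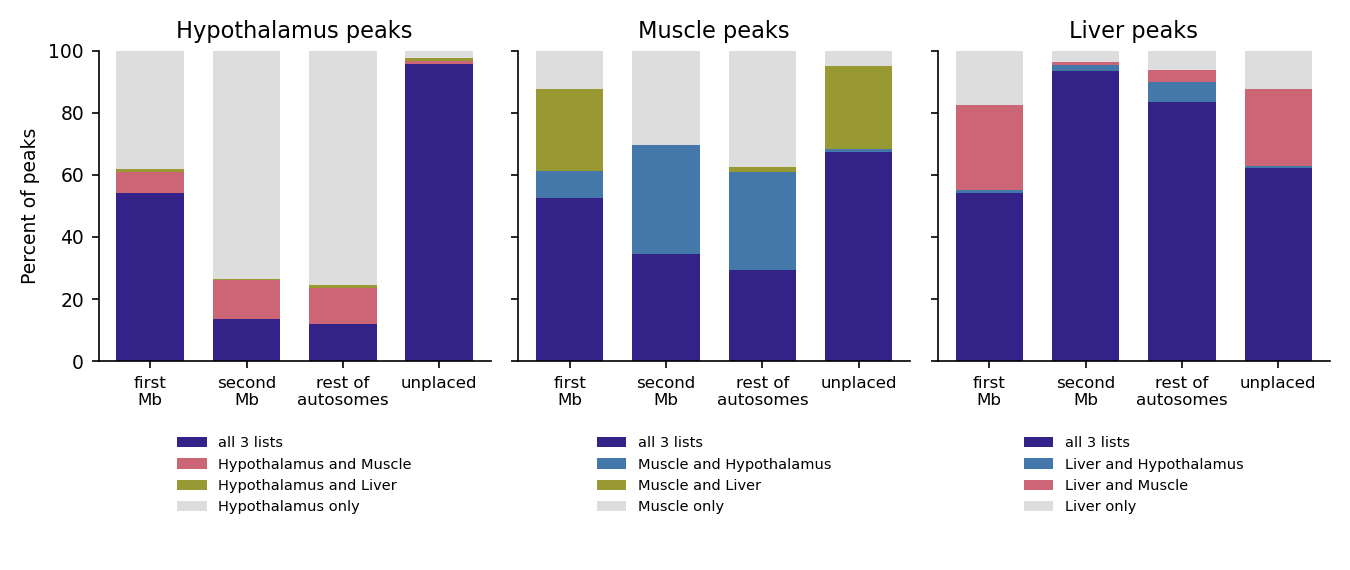
Percent of the peaks of each list that overlap both other lists, 1 other list, or none, for the first megabase, the second megabase, the rest of the autosomes, and the sequences not placed on a chromosome. The share in all 3 lists is 54.1%, 52.4%, and 54.0% in the first megabase, and the class shared by muscle and liver alone is wide in the first megabase and in the unplaced sequences.

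In the sequences not placed on any chromosome, 95.6% of 7500 hypothalamus peaks, 67.5% of 9621 muscle peaks, and 62.3% of 10228 liver peaks overlapped both other lists. The first 200 kb lay nearer to these values than to those of all autosomal peaks. The shares there were 56.6% (52.4% to 60.7%) in liver, 59.3% (55.2% to 63.4%) in muscle, and 95.8% (93.2% to 97.5%) in hypothalamus. The unplaced values of liver and muscle lay above these intervals, and that of hypothalamus lay within its interval. From 200 kb to 1 Mb the shares were 49.9%, 43.0%, and 28.9%. Those of muscle and hypothalamus lay between the unplaced and the autosomal values, and that of liver lay below both.

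Members found in 1 list only were spread unequally over the autosomes. Among all autosomal peaks 6.94% of those in liver, 36.6% of those in muscle, and 75.0% of those in hypothalamus overlapped no other list. In the first megabase hypothalamus had 364 such peaks (38.1%), of which 83 were on autosome 25, 56 on autosome 14, and 30 on autosome 20. Muscle had 117 (12.4%), with 17 on autosome 8 and 16 on autosome 16. Liver had 156 (17.4%), with 52 on autosome 1 and 22 on autosome 21. For comparison, 1 of 81 hypothalamus peaks on autosome 13 and 0 of 48 on autosome 18 had no overlap in another list.

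By summit, the difference between members and other autosomal peaks had an interval above 0 in liver and muscle, and in hypothalamus the interval included 0. The median summit was 5.17 in liver (5.06 to 5.38), 5.46 in muscle (5.30 to 5.67), and 6.02 in hypothalamus (5.76 to 6.34), where the rest of the autosomes had 4.57, 5.16, and 5.99. The differences were 0.60 (0.48 to 0.81), 0.30 (0.14 to 0.51), and 0.02 (−0.24 to 0.34) in −log10 p. Among peaks with a summit of at least 5 the muscle difference was 0.15, with an interval that included 0 (−0.08 to 0.40). By AUC the differences in median were 40.2 in liver (−22.2 to 81.9), −39.4 in muscle (−105.4 to 7.54), and −59.4 in hypothalamus (−158.7 to 60.2), and each interval included 0. The strongest 10% by summit, 10.0% of the autosomal peaks of each list by construction, included 9.62% of the hypothalamus members (7.91% to 11.7%), 16.8% of the muscle members (14.6% to 19.4%), and 28.1% of the liver members (25.2% to 31.1%). The strongest 10% by AUC included 12.6% (10.6% to 14.8%), 13.6% (11.5% to 15.9%), and 20.2% (17.7% to 23.0%), and the hypothalamus share was 2.59 points above that of the rest (0.622 to 4.85). Of the 100 autosomal peaks with the highest summits, 3 in hypothalamus, 43 in muscle, and 61 in liver were members. Of the 100 with the largest AUC, the numbers were 12, 33, and 53.

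Members were short. Median length was 395.0 bp (370.0 to 421.0) in liver, 429.0 bp (398.0 to 456.0) in muscle, and 534.5 bp (497.0 to 573.0) in hypothalamus, against 490.0, 523.0, and 567.0 bp elsewhere on the autosomes. The differences of −94 bp in muscle (−125.4 to −66.5) and −95 bp in liver (−120.5 to −68.3) had intervals that excluded 0, and the difference of −32.5 bp in hypothalamus (−70.2 to 6.21) did not. Among peaks with a summit of at least 5 the differences in muscle and liver were wider, at −181.0 and −195.5 bp. The hypothalamus difference was −72.0 bp without autosome 25 (−105.2 to −35.8) and −167.0 bp over the first 500 kb (−196.3 to −111.9), and 15.0 bp over the first 2 Mb (−14.3 to 45.3). In the first 200 kb the medians were 303.5, 337.0, and 329.0 bp in hypothalamus, muscle, and liver, close to the 332.0, 334.0, and 333.0 bp of unplaced sequences. From 200 kb to 1 Mb they were 750.5, 592.5, and 530.0 bp, each above the median elsewhere on the autosomes. The liver interval there (463.0 to 592.0) included the value elsewhere.

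Beside these peaks stood a few very long ones. Peaks of 10 kb or more made up 0.106% of autosomal peaks in liver, 0.0509% in muscle, and 0.0579% in hypothalamus. The first megabase held 9 of the 12 such peaks in liver, 9 of 15 in muscle, and 10 of 40 in hypothalamus. They fell in 10 regions on 8 autosomes, and 9 of the regions had a peak of that length in all 3 lists. The limit of 10 kb was chosen after the lengths were seen.

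The longest was on autosome 7, at chr7:81582-121034 in hypothalamus, chr7:81583-121044 in muscle, and chr7:81582-121454 in liver. It had the largest AUC of the members in each list, at 303737, 349427, and 358599, with summits of 20.9, 22.3, and 22.7. The second by AUC in each list was at the very start of autosome 23, at chr23:649-25662 in hypothalamus with an AUC of 212209, chr23:636-25685 in muscle with 254004, and chr23:480-28447 in liver with 282877. The third was chr20:100586-119381 in muscle (AUC 125442) and chr20:100594-119380 in liver (AUC 137831), and in hypothalamus it was chr13:329006-341603 (AUC 95301). AUC was highest in liver and lowest in hypothalamus at each of the 9 long regions shared by the lists. At the remaining region, on autosome 14, the order was the reverse, with a peak of 10047 bp in hypothalamus, 921 bp in muscle, and 636 bp in liver.

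The highest summits were on autosome 16 in all 3 lists. The peak at chr16:827667-829261 in hypothalamus, chr16:827672-829221 in muscle, and chr16:827670-829260 in liver had summits of 39.0, 32.6, and 35.8. Its neighbour, at chr16:826503-827268 in hypothalamus, chr16:826505-826968 in muscle, and chr16:826504-827332 in liver, had summits of 31.9, 25.7, and 28.7. The third was chr20:325978-328974 in hypothalamus, with a summit of 27.6, and the long peak of autosome 7 in the other lists. The first of these autosome 16 peaks was also the region with the highest lowest summit over the lists, chr16:827672-829221 in common, followed by its neighbour and by the autosome 7 region. Across the 29 first megabases 533 intervals were covered by peaks of all 3 lists, 5.70% of those on the autosomes, and 59 of the 100 autosomal intervals with the highest lowest summit were among them.

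Among the members found in 1 list only, the largest of hypothalamus exceeded those of muscle and liver in AUC and summit. The 3 largest by AUC in hypothalamus were chr25:834037-841613, chr25:825110-829998, and chr16:950130-954548, with AUC of 31075, 15111, and 15071 and summits of 20.0, 17.2, and 18.0. In muscle they were chr8:829505-831317, chr1:948985-949737, and chr14:871361-873485, with AUC of 1963, 1765, and 1598 and summits of 5.52, 7.22, and 5.02. In liver they were chr1:451223-453750, chr16:273196-275437, and chr1:322990-324426, with AUC of 1385, 1099, and 849.2 and summits of 4.05, 3.61, and 3.55. These liver summits lay between the lowest in that list, 2.77, and the median of its other autosomal peaks, 4.57.

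Where a peak of 1 list overlapped exactly 1 peak of another and the reverse held too, the 2 peaks were taken as a pair. In the first megabase the edges of paired peaks lay closer together than elsewhere. Liver and muscle formed 654 such pairs, in which the overlap covered a median of 92.6% of the combined length (91.4% to 94.1%), against 63.1% (62.4% to 63.7%) in 8352 pairs elsewhere on the autosomes. Start positions differed by a median of 8 bp, against 120.0 bp elsewhere. Liver and hypothalamus formed 424 pairs with 83.6% in common (81.0% to 86.0%) against 31.8% (31.4% to 32.2%) elsewhere, and muscle and hypothalamus 493 pairs with 81.2% (75.4% to 84.6%) against 50.5% (50.0% to 51.0%). The edges also differed within the megabase. In the first 200 kb liver and hypothalamus pairs had 86.4% in common (84.0% to 88.2%) and muscle and hypothalamus pairs 88.7% (84.8% to 90.5%), and from 200 kb to 1 Mb these values were 52.0% (36.3% to 80.4%) and 55.8% (51.8% to 64.6%). Median start distances were 14 and 13 bp in the first 200 kb and 238.5 and 206.0 bp beyond it. Liver and muscle pairs had 94.6% (93.4% to 95.6%) and 82.0% (78.2% to 88.7%) in common. In all 3 pairings the overlap over the whole first megabase was nearer to that of unplaced sequences, at 95%, 89.6%, and 91.0%, than to that of the other autosomal peaks.

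Pairs also changed the order of the summits. Among all autosomal pairs the liver summit was above the hypothalamus summit in 7.38%, the liver above the muscle summit in 11.1%, and the muscle above the hypothalamus summit in 14.0%. In the first megabase the liver summit was above that of hypothalamus in 316 of 424 pairs (74.5%, 70.2% to 78.4%), with a median difference of 1.39 (1.15 to 1.62), where the rest of the autosomes had −10.8 (−10.9 to −10.7). Muscle was above hypothalamus in 342 of 493 pairs (69.4%, 65.2% to 73.3%), with a median of 0.99 (0.82 to 1.13) against −6.55 (−6.66 to −6.46). Liver was above muscle in 364 of 654 pairs (55.7%, 51.8% to 59.4%), with a median of 0.08 (0.02 to 0.18) against −2.61 (−2.65 to −2.57). Summit values were not scaled between the lists, so these differences compare what the caller gave for each tissue.

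**Figure D4:**
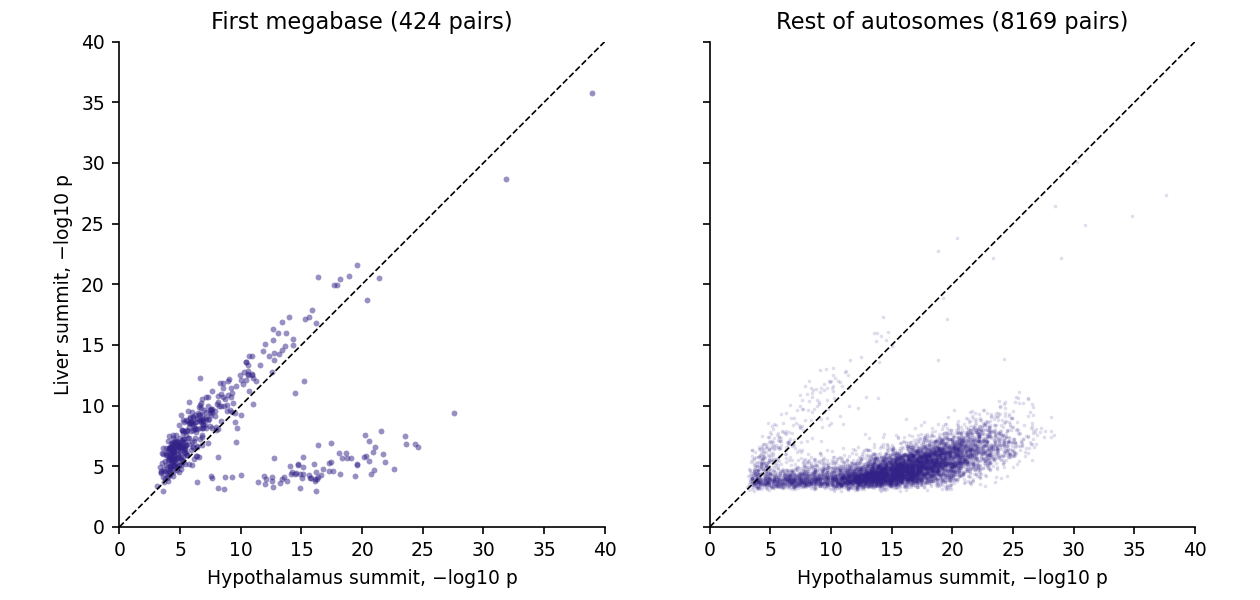
Summit −log10 p of paired peaks, with hypothalamus on the horizontal and liver on the vertical axis, for 424 pairs in the first megabase (left) and 8169 elsewhere on the autosomes (right), with the dashed line marking equal values. The first megabase shows 2 bands, 1 just above the line and 1 far below it, and the lower band is where most other autosomal pairs lie.

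The 2 bands were seen by eye, and no pair was assigned to a band. The order of the summits differed with position in the first megabase. In the first 200 kb the liver summit was the higher in 253 of 276 pairs (91.7%, 87.8% to 94.4%), with a median difference of 1.69 (1.55 to 1.79). In 5645 pairs of unplaced sequences the share was 90.2%, within that interval, and the median difference 1.39, below its interval. From 200 kb to 1 Mb the liver summit was the higher in 63 of 148 pairs (42.6%, 34.9% to 50.6%), with a median of −3.40 (−8.80 to 0.31). Muscle against hypothalamus gave the same split, with the muscle summit higher in 270 of 298 pairs (90.6%, 86.8% to 93.4%) and then in 72 of 195 (36.9%, 30.5% to 43.9%).

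The order of the summits also differed between autosomes. Of the 20 autosomes with at least 5 pairs of liver and hypothalamus peaks in the first megabase, 17 had a median difference above 0, from 0.09 on autosome 7 to 2.50 on autosome 10. The exceptions among these 20 were autosomes 14, 24, and 25, at −10.1 over 27 pairs, −9.63 over 5 pairs, and −11.0 over 25 pairs. Over the rest of the same 20 autosomes the median ran from −11.8 to −9.39 and was above 0 on none. Autosomes with fewer than 5 pairs in the first megabase were split. The median was below 0 on autosomes 3, 20, and 22, at −10.4, −7.58, and −12.0. It was above 0 on autosomes 5, 11, 12, 19, and 23, and autosome 6 had no pair. Autosomes 14 and 25 therefore had medians near those of their own long arms, while autosome 13, at 1.72 over 64 pairs, and autosome 16, at 1.99 over 65 pairs, did not. Autosome and distance from the start were not separated here. The first 200 kb held 1 of 106, 3 of 39, and 16 of 123 hypothalamus members on autosomes 14, 24, and 25. On autosomes 13 and 16 it held 63 of 81 and 71 of 99.

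**Figure D5:**
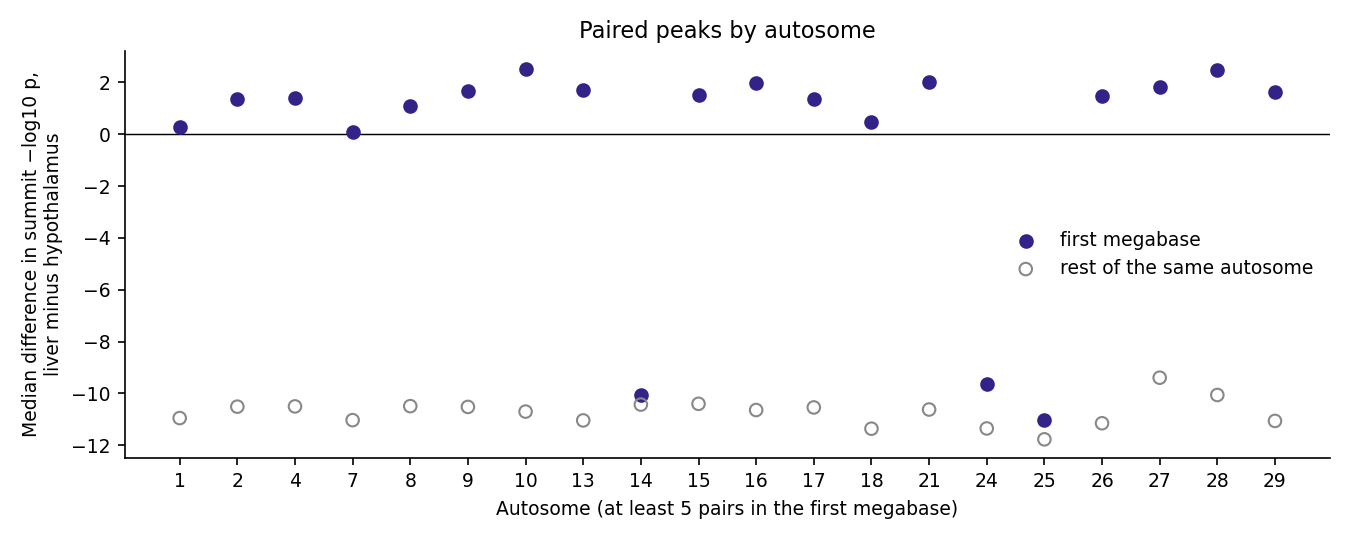
Median difference in summit −log10 p, liver minus hypothalamus, on each autosome with at least 5 pairs in the first megabase, for that megabase (filled) and for the rest of the same autosome (open). The filled points lie above 0 on 17 of 20 autosomes and near the open points on autosomes 14, 24, and 25.

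The last peaks inside the 1 Mb limit were chr2:999778-1000666 in hypothalamus with a summit of 10.8, chr3:996914-997615 in muscle with 10.8, and chr3:997165-997516 in liver with 4.29. The first peaks outside it were chr8:1001253-1003880 in hypothalamus with 15.3, chr18:1001605-1002308 in muscle with 6.98, and chr18:1001980-1002271 in liver with 4.23.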

How the data were processed

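The authors used HISAT2 to align paired reads to ARS-UCD1.2, kept several alignments of a read, and passed them to Genrich 0.6.1 for peak calling, which removed PCR duplicates, left out the mitochondrial chromosome, and combined the 3 heifers of a tissue by Fisher's method. The deposited peak lists hold for each peak the AUC, a signal value of at least 200.0, and the −log10 p at the summit, deposited without correction for multiple tests. Neither was scaled between lists. Starts were counted from 0 in the lists and are printed from 1. Peaks on autosomes 1 to 29 with a start below 1 Mb were members. The span of an autosome was taken up to the end of its last peak, in any list.

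Overlaps were computed in python 3.11.15 with numpy 2.4.6 and pandas 2.3.3, and checked with bedtools 2.31.1, which gave 6 of 6 equal counts. On 3000 simulated loci, 5 of 5 counts known in advance were found again. Intervals came from scipy 1.17.1 and plots from matplotlib 3.10.9. Counts have exact Poisson, ratios of density exact binomial, shares Wilson, differences of shares Newcombe, and medians order-statistic 95% intervals, with differences of medians combined from both. No test between tissues was made, since no value of a single animal was given. Named peaks are, in each list, the 3 with the largest AUC, the 3 with the highest summit, the 3 of that list only with the largest AUC, and those on either side of the limit, then the 3 shared intervals with the highest lowest summit, and the autosomes with most and fewest peaks. Other autosomes were picked once their counts were known. The members, this rule, and the tests were chosen with earlier results of these data known. Alternatives were a stricter summit, other window lengths, the midpoint, other overlap rules, equal list lengths, AUC for the summit, and leaving out the richest autosome. Sequence, gene annotation, and read depth were not analysed here.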

Additional observations from a re-analysis of the deposited data

How the results depend on the processing

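The 22 results were recomputed under 9 other settings as each applied, 80 values in all. Of these, 40 stayed close to the first value and 40 moved. A reversal could be called only for ratios whose first interval excluded 1 and differences whose first interval excluded 0, and 0 were called. The hypothalamus differences in length and summit had first intervals that included 0, so their changes of sign below could not be called. With a summit of at least 5 490 members remained in liver, 560 in muscle, and 615 in hypothalamus, with 310 shared intervals. Density ratios then became 3.13 in muscle and 10.6 in liver, the muscle difference in sharing 22.4 points, the length differences −181.0 bp in muscle and −195.5 bp in liver, the summit differences 0.92 in liver and 0.15 in muscle, the latter with an interval that included 0 (−0.08 to 0.40), and the liver share in the strongest 10% of peaks 37.6%. Over the first 500 kb the density ratios were 1.44, 4.17, and 12.1 in hypothalamus, muscle, and liver, the sharing differences 54.1 points in hypothalamus and 29.9 in muscle, the length differences −167.0, −155.0, and −126.5 bp, and the summit differences −0.25 in hypothalamus and 0.52 in muscle. Over the first 2 Mb the density ratios were 1.92 in muscle and 4.17 in liver, the sharing differences 20.5 and 20.3 points in hypothalamus and muscle, and the length differences 15.0 and −50.0 bp. Without the autosome with the most members, 25 in hypothalamus and 16 in the others, the density ratios were 1.08, 2.49, and 6.39, and in hypothalamus the sharing difference was 42.1 points and the length difference −72.0 bp. With the strongest 11359 autosomal peaks of each list, the density ratios were 1.17 in hypothalamus (0.987 to 1.37) and 3.20 in muscle, and the sharing differences were 14.2, 28.0, and −29.9 points. Counting a peak within 1 kb as shared gave −5.57 points in liver, and the strongest 10% by AUC held 12.6%, 13.6%, and 20.2% of the members. The causes were not tested.

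Leaving out a heifer was not possible, since each list pools the animals. No paired analysis was possible because the columns carry no heifer number. Sequence features of the peaks were not run, as no genome of the build was used here. The lists give no read counts, so the depth behind a peak is unknown.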
